A study of Gallus gallus with 4 samples.

Results

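The genes of the cytosolic ribosomal proteins, the protein parts of the large (60S) and small (40S) subunits that translate nuclear messages, were followed in broiler liver. Members were taken by symbol: RPL or RPS with a digit, RPLP0 to RPLP2 and RPSA, without the RPS6K kinases. A gene was named through the RefSeq accession that the array gives for a probe. By this rule 73 symbols stood in the gene table of the assembly GRCg7b. Probes matched 51 of them, 33 of the large and 18 of the small subunit, among 4872 named genes measured in all. The other 22 symbols, among them RPL11, RPL23, RPLP2, RPS23 and RPS27A, had no probe matched by accession and were not analysed here. The 51 genes carried 105 probes, and all 105 passed the filter on dim signal.

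Each of the 4 arrays held liver RNA of coloured broiler chickens aged 35 days, with 2 arrays for group 1 and 2 for group 2. Group 1 is labelled high and group 2 low. The same word stands in each label for feed efficiency and for residual feed intake, which is intake above that predicted from growth and body size. Birds of high residual intake are usually the poor converters, so which group converted feed better is unclear from the labels. Both groups are therefore called by number. The birds came from divergent selection on residual feed intake, all lived in single cages with free access to a starter and then a finisher ration, and no treatment, genotype or allele is named. The design text names 4 to 5 birds per group, pooled, with the pool divided into 2 replicates. By that text p-values would measure the spread between parts of a pool, which may be technical. The birds of 3 arrays are labelled female, and those of group 2 replicate 2 as 1 male with 1 female, so by the sex labels the group 2 arrays do not hold parts of the same pool.

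The array labelled group 2 replicate 1 stands apart in a way that its label does not give. Hens carry a W and a single Z chromosome, and cocks a pair of Z chromosomes. The W-linked gene HINTW had a median log2 level over its 8 probes of 6.16 and 5.98 on the group 1 arrays, 5.87 on group 2 replicate 2 and -3.85 on group 2 replicate 1. Levels here are log2 intensity relative to the 75th percentile of the array. On group 2 replicate 1 the HINTW probes ran from -8.14 to 5.34, and 7 of 8 were well above background. On the other arrays they ran from 1.15 to 6.63. Of 196 measured genes on chromosome Z, 54.1% were highest on group 2 replicate 1, against 22.8% of autosomal genes. Markers of the labelled tissue were present, and all 10 measured hepatocyte markers were well above background on every array. Where leaving out group 2 replicate 1 moves a difference printed for a gene by over 1.5 times, both values are given. This holds for the probe that stands for the gene.

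Ribosomal proteins surround a core of ribosomal RNA, and a ribosome needs 1 copy of nearly every one of them. Their messages share a pyrimidine-rich start, through which the kinase complex mTORC1 sets how strongly they are translated when nutrients and insulin are plentiful. Ribosome assembly takes place largely in the nucleolus, where RNA polymerase I transcribes the ribosomal RNA. In liver, an organ that exports much protein into blood, these messages are among the abundant ones.

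No ribosomal protein gene passed the test between the groups. By limma, with Benjamini-Hochberg adjustment over all probes and a threshold of 0.05, 0 of the 51 members were higher in group 1 and 0 were lower. Of all genes tested 9.67% passed, 5.75% as higher and 3.92% as lower in group 1. At an unadjusted p under 0.05 the members' count was also 0, while 31.6% of all genes reached it, 19.1% as higher and 12.5% as lower. The median log2 difference, group 1 minus group 2, was 0.23 over the members, a ratio of 1.18, against 0.14 over all genes. A difference above 0 was found for 41 of the 51 (80.4%), against 58.5% of all genes. Medians were 0.22 in the large and 0.26 in the small subunit, with 26 of 33 and 15 of 18 genes above 0.

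The members lay close together. Their differences ran from -0.50 to 0.53 log2 units with an SD across genes of 0.21, against an SD of 0.89 over all genes. None exceeded 1 log2 unit in size, which 18.1% of all genes did, and the largest ratio was 1.45. Their quartiles lay 0.26 log2 units apart, against 0.87 for all genes. Intervals were wider than these differences: the half-width of the 95% interval had a median of 0.66, and over all members the intervals reached from -1.02 to 1.37. Differences up to those limits were thus not resolved by 2 arrays per group. Close quartiles were not particular to the members. For the 10 measured hepatocyte markers they were -0.04 and 0.11, with an SD of 0.48.

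**Figure D1:**
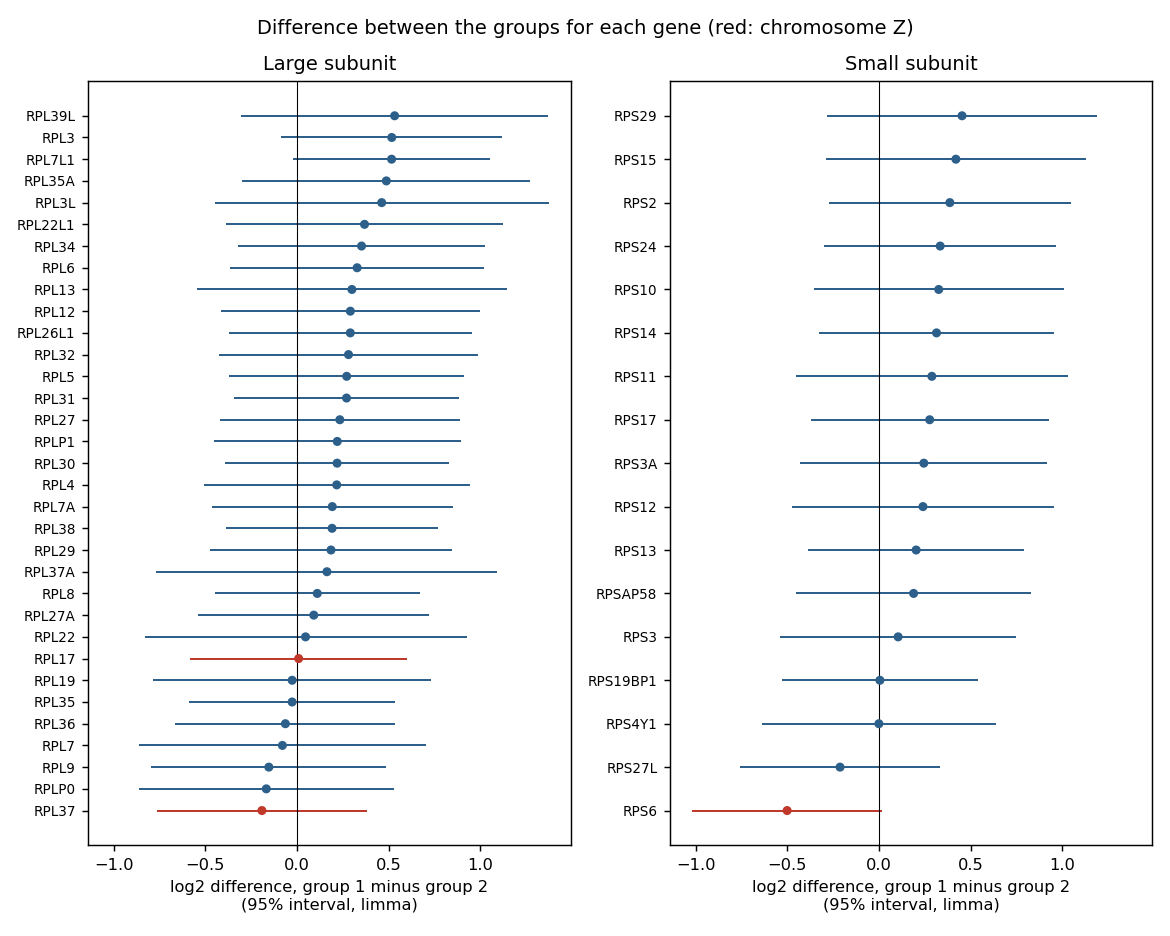
Log2 difference between group 1 and group 2 (x axis) for each ribosomal protein gene described here (y axis), as points with 95% intervals from limma, with the large subunit on the left, the small subunit on the right and genes on chromosome Z in red. All intervals drawn include 0, and RPS6 at -0.50 lies farthest from it on the side of group 2.

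The replicates of a group differed from each other as much as the groups did. On group 1 replicate 1 the members lay above their own 4-array mean by a median of 0.27, and on group 1 replicate 2 they were at -0.02. On group 2 replicate 1 they were at -0.29, and on group 2 replicate 2 at 0.04. The higher array of group 1 and the lower array of group 2 thus carried the difference, while the other arrays of the groups lay together.

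In numbers of genes, group 1 replicate 1 was the highest array for 38 of 51 members (74.5%, against 38.2% of all genes), and group 2 replicate 1 was the lowest for 38 (74.5%, against 35.5% of all genes). Both held for 32 members, or 62.7%, and for 20.9% of all genes. Within group 1 replicate 1 exceeded replicate 2 by a median of 0.27, in 46 of the 51 genes. Within group 2 replicate 2 exceeded replicate 1 by a median of 0.31, in 45. For 48 members (94.1%) the larger of these gaps was greater than the difference between the groups, against 45.2% of all genes. The exceptions were RPL3, RPL7L1 and RPS6. Such a gap also exceeded the group difference in 9 of 10 measured hepatocyte markers. It did so in 9 of 9 elongation factors and other genes with a pyrimidine-rich message start, and in 10 of 22 initiation factors. Group 1 replicate 1 was the highest array for 8 of the 10 hepatocyte markers, but group 2 replicate 1 was the lowest for 0.

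**Figure D2:**
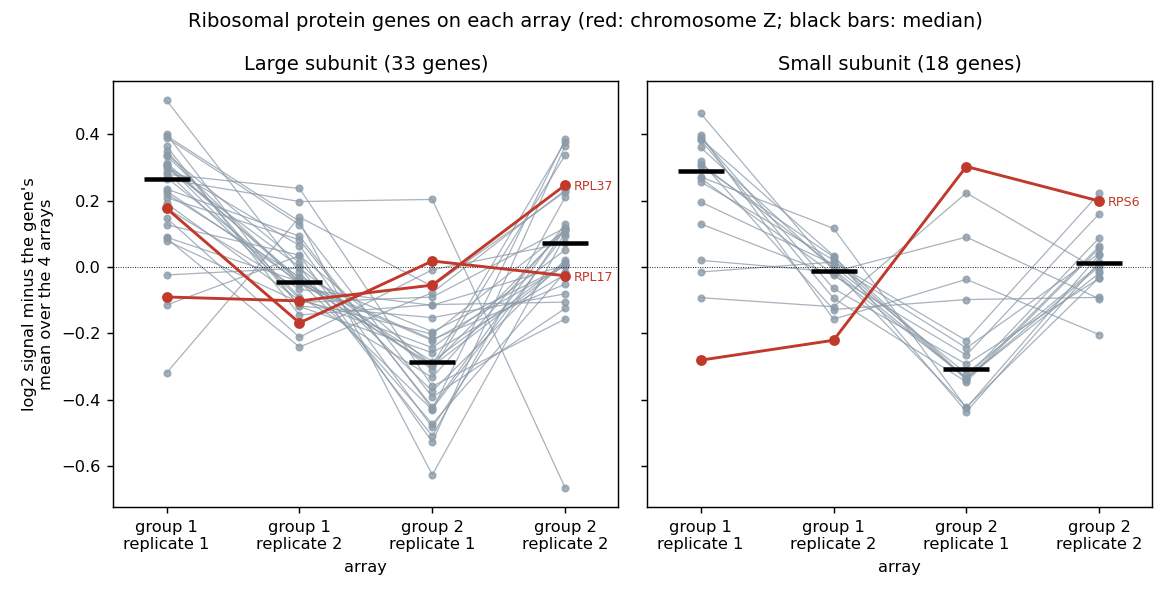
Log2 signal of each gene minus its mean over the 4 arrays (y axis) on each array (x axis), 1 line per gene, for the large subunit (left) and the small subunit (right). Black bars are medians and red lines are the genes on chromosome Z. Most lines start high on group 1 replicate 1 and dip on group 2 replicate 1, and RPS6 is higher on both group 2 arrays.

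Because of this pattern the median moved with single arrays. Without group 1 replicate 1 it was 0.07, without group 1 replicate 2 it was 0.40, without group 2 replicate 1 it was 0.08, and without group 2 replicate 2 it was 0.39. Relative to the median of all genes these values were -0.03, 0.23, -0.04 and 0.26. Scaling moved it as well: with arrays scaled on their medians the members' median was 0.02 and that of all genes -0.08, and this scaling shifts every gene alike. With median scaling 29 of the 51 were above 0, against 44.7% of all genes. The 41 above 0 became 34 without group 1 replicate 1 (56.2% of all genes) and also 34 without group 2 replicate 1 (57.2% of all genes).

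The groups did not overlap in 13 members (25.5%), against 68.1% of all genes. Group 1 lay above for 10 of them and group 2 for 3, RPS6, RPL37 and RPS27L. Over all genes the shares were 40.3% and 27.8%. In either direction the groups did not overlap in 10% of the 10 measured hepatocyte markers and 68.2% of the 22 measured initiation factors.

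Among the large subunit genes RPL39L, which the gene table also lists as RPL39, a small protein of the peptide exit tunnel, had the highest difference. Its level was 6.30 and 6.04 in group 1 and 5.28 and 5.999 in group 2. Only group 2 replicate 1 lay far below the rest. The difference was 0.53 ± 0.32 (SE, n = 2 arrays per group, limma adjusted p = 0.289), and 0.17 without that array.

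RPL3, which lies near the peptidyl transferase centre, read 7.14 and 6.88 in group 1 and 6.36 and 6.63 in group 2. Neither array of group 1 overlapped group 2 on this probe, and the difference was 0.52 ± 0.23 (limma adjusted p = 0.185). RPL35A, mutated in some human families with Diamond-Blackfan anaemia, read 7.34 and 6.83 against 6.37 and 6.82. In that gene group 1 replicate 2 and group 2 replicate 2 nearly coincided, and the difference was 0.49 ± 0.30 (limma adjusted p = 0.300). It was 0.26 without group 2 replicate 1 and 0.23 without group 1 replicate 1.

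RPL7L1, a relative of RPL7 that acts in assembly of the large subunit, read 2.87 and 2.83 in group 1 and 2.24 and 2.44 in group 2. The groups did not overlap and replicates lay close on this probe, with a difference of 0.52 ± 0.20 (95% interval -0.02 to 1.05, limma adjusted p = 0.153). Its dimmer probe read 2.44 and 2.49 against 2.38 and 1.99. There the difference was 0.29 ± 0.23 (limma adjusted p = 0.421), and group 2 replicate 2 was the lower array of its group. RPL7 itself read 5.41 and 5.55 against 5.22 and 5.90. Its group 2 arrays enclosed both of group 1, and its difference was -0.08, or -0.42 without group 2 replicate 1.

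The 4 lowest differences of the large subunit were those of RPL37, RPLP0, RPL9 and RPL7. RPLP0, the base of the stalk that recruits elongation factors, read 4.69 and 5.16 in group 1 and 4.95 and 5.23 in group 2. It and RPS6 were the 2 members lowest on group 1 replicate 1, as 16.9% of all genes were. Its dimmer probe was lowest there as well (4.58, 5.03, 4.76 and 5.01). The difference was -0.17 ± 0.26, or -0.31 without group 2 replicate 1. Its partner RPLP1 read 7.95 and 7.44 against 7.47 and 7.48, a difference of 0.22, with only group 1 replicate 1 apart from the rest. RPL9 read 6.995 and 6.67 against 6.83 and 7.14, a difference of -0.15 with overlapping groups, or -0.31 without group 2 replicate 1.

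In the small subunit the highest differences were led by RPS29, RPS15 and RPS2. RPS29, a zinc-binding protein, read 7.65 and 7.18 in group 1 and 6.77 and 7.16 in group 2, a difference of 0.45 ± 0.28 (limma adjusted p = 0.302). RPS15, needed for export and maturation of the small subunit, read 7.59 and 7.24 against 6.77 and 7.22, a difference of 0.42. In both genes group 1 replicate 2 lay within a few hundredths of group 2 replicate 2. RPS2, a core protein of the small subunit near the mRNA channel, read 6.996 and 6.84 against 6.30 and 6.76, a difference of 0.39. Without group 2 replicate 1 the differences were 0.26 for RPS29, 0.19 for RPS15 and 0.16 for RPS2.

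RPS6 lay lowest of the members, of which 10 were below 0. It is the target of the S6 kinases downstream of mTORC1. Its single probe read 5.97 and 6.03 in group 1 and 6.55 and 6.45 in group 2, so both group 2 arrays were higher and replicates differed by 0.10 or less. The difference was -0.50 ± 0.20 (95% interval -1.02 to 0.02), the smallest p of all members (limma, unadjusted 0.0556, adjusted p = 0.151). It was -0.45 without group 2 replicate 1 and -0.72 with median scaling, and its adjusted p ranged from 0.0642 to 0.268 over the processing alternatives.

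RPS6 is Z-linked in the chicken, as are RPL17 and RPL37 among the measured members. RPL17, a protein of the exit tunnel, read 7.12 and 6.78 in group 1 and 6.96 and 6.92 in group 2, a difference of 0.01, or 0.03 without group 2 replicate 1. RPL37, which lies in the large subunit's interior, read 5.09 and 5.08 against 5.13 and 5.43, a difference of -0.19 ± 0.22, or -0.34 without group 2 replicate 1. Its dimmer probes differed by -0.03 and 0.08, with overlapping groups. None of the 3 was lowest on group 2 replicate 1, whereas 38 of the 48 members on other chromosomes were. Their median difference was -0.19, against 0.24 for those 48. The value for the 3 is that of RPL37 on its brightest probe, and over all probes of a gene it was -0.0342. Over all 196 measured Z-linked genes the median was -0.25, and their median deviation on group 2 replicate 1 was 0.32 above their own mean. Without that array the median difference was 0.01 for all Z-linked genes and -0.34 for the 3 members. RPS6 read 6.45 on group 2 replicate 2, which is labelled 1 male with 1 female and had HINTW near the group 1 level. How far the number of Z chromosomes bears on RPS6 was not tested.

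**Figure D3:**
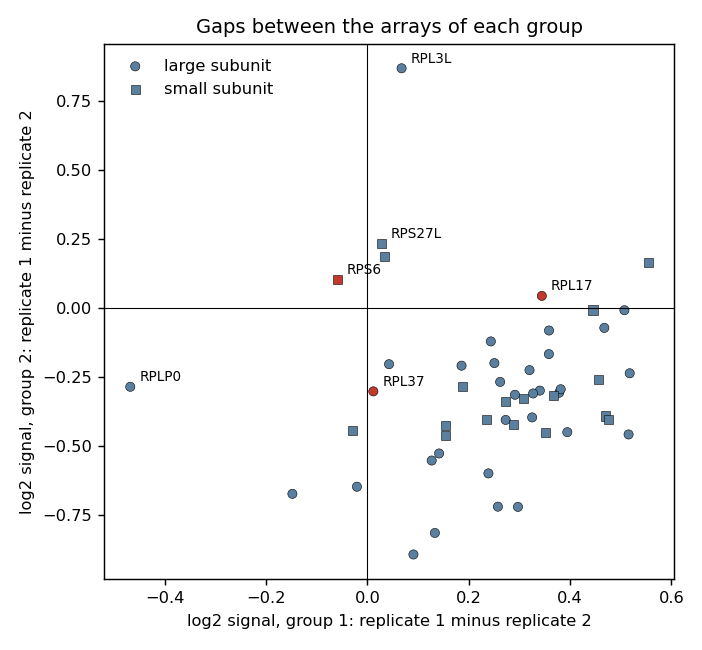
Gap between the arrays of group 1 (x axis, log2 signal of replicate 1 minus replicate 2) and of group 2 (y axis, likewise), 1 point per gene, with circles for the large subunit, squares for the small subunit and red for chromosome Z. Most points lie at the lower right, high on group 1 replicate 1 and low on group 2 replicate 1, while RPLP0, RPS6, RPS27L and RPL3L lie outside that corner.

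The rule also takes 7 symbols of related or copied genes: RPL39L, RPL7L1, RPL3L, RPL22L1, RPL26L1, RPS27L and RPS19BP1. RPL26L1 is listed with the synonym RPL26 and RPL39L with RPL39, so these are the table's names for the chicken loci. RPL26L1 read 7.32 and 6.95 in group 1 and 6.69 and 6.997 in group 2, a difference of 0.29, or 0.14 without group 2 replicate 1. RPL22L1, the relative of RPL22, read 3.18 and 2.94 against 2.40 and 2.99, a difference of 0.37, with only group 2 replicate 1 low. Without that array it was 0.07. RPL22 had the same low array (5.04), with a difference of 0.05, or -0.36 without it.

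RPL3L replaces RPL3 in striated muscle of mammals. It read -3.29 and -3.36 in group 1 and -3.35 and -4.22 in group 2, and group 2 replicate 2 alone was low. It was the dimmest member. Its difference was 0.46 ± 0.35 (limma adjusted p = 0.386), but 0.23 with the normexp background alternative, 0.16 with quantile normalization and 0.06 with both. Without group 2 replicate 1 it was 0.90 and passed the test (adjusted p = 0.0430), the only call of a member under any alternative. The group 2 value then rests on 1 array, which is assumed to vary as those of group 1 do.

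RPS27L, a relative of RPS27 that responds to p53 in human cells, read 6.28 and 6.25 in group 1 and 6.59 and 6.36 in group 2, a difference of -0.21 on its brightest probe, or -0.095 without group 2 replicate 1. The other probe read 5.50 and 5.50 against 5.83 and 4.87, so that group 2 lay on both sides of group 1, with a difference of 0.15. RPS19BP1, a nucleolar partner of RPS19 rather than a ribosomal protein, read 1.83 and 1.80 against 1.90 and 1.72, a difference of 0.01, or 0.10 without group 2 replicate 1. The table's RPS4Y1, with the synonyms RPS4 and RPS4X, lies on chromosome 4 in the chicken. It read 6.22 and 6.25 against 6.01 and 6.45, a difference of -8e-05, or -0.22 without group 2 replicate 1. Without the 7 symbols, which take in RPL26L1 and RPL39L but not RPS4Y1, the members' median was 0.22.

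For 36 members several probes measured the same gene. In 24 of them all probes had the same sign, and the span between the highest and lowest difference had a median of 0.12 over the 36. Over all 105 member probes 77 lay above 0, with a median of 0.19, and 0 passed the test. Among all probes 59.4% lay above 0 and 11.2% passed. The 54 dimmer probes had a median of 0.10. In 28 of the 36 genes the gap of group 1, replicate 1 minus replicate 2, was larger on the brightest probe than on the dimmest. One of the 105 had an unadjusted p under 0.05, against 35.3% of all probes. It was the dimmer probe of RPS13, chosen for mention after its value was seen. Its levels were 6.41 and 6.15 against 5.36 and 5.63 (0.78 ± 0.23, limma adjusted p = 0.0897), while the brighter probe of RPS13 differed by 0.20, or 0.06 without group 2 replicate 1.

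In 6 genes the probes differed in sign and by more than 0.5. RPL3 is the clearest: its brightest probe had 0.52 and the other probes -0.23, -0.27 and -0.52. The dimmest of these read 2.30 and 3.003 in group 1 and 2.75 and 3.59 in group 2, so the array that was highest on the bright probe was lowest on this one. RPL4, which lines the exit tunnel, went from 0.22 on its brightest probe through 0.06 and -0.13 to -0.51 on the dimmest. Without group 2 replicate 1 its brightest probe was at -0.00833. In it too the dimmest probe was lowest on group 1 replicate 1 (3.72, against 4.17, 4.04 and 4.87).

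RPSA, the laminin receptor homologue of the small subunit, listed as RPSAP58, had 0.19 on its brighter and -0.52 on its dimmer probe. The dimmer one read 3.88 and 4.32 in group 1 against 4.33 and 4.91. RPS4Y1 had 0.05, 0.04 and -8e-05 on its brighter probes and -0.49 on the dimmest. In RPS14, whose loss marks the human 5q- syndrome, the brighter probes had 0.31 and 0.10, and the first had 0.15 without group 2 replicate 1. The dimmest had -0.79 and read -1.54 on group 2 replicate 1 and between -3.19 and -3.13 on the other arrays. RPL35A had 0.49 and 0.53 on its brighter probes and -0.26 on the dimmest. None of these probes passed the test. The signs of RPL3, RPL4, RPSA, RPS4Y1, RPS14 and RPL35A depend on the probe that stands for the gene. Ribosomal protein genes have many near-identical copies in mammalian genomes, and copies in the chicken genome were not counted here. Whether these probes bind copies or different parts of a message was not tested.

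**Figure D4:**
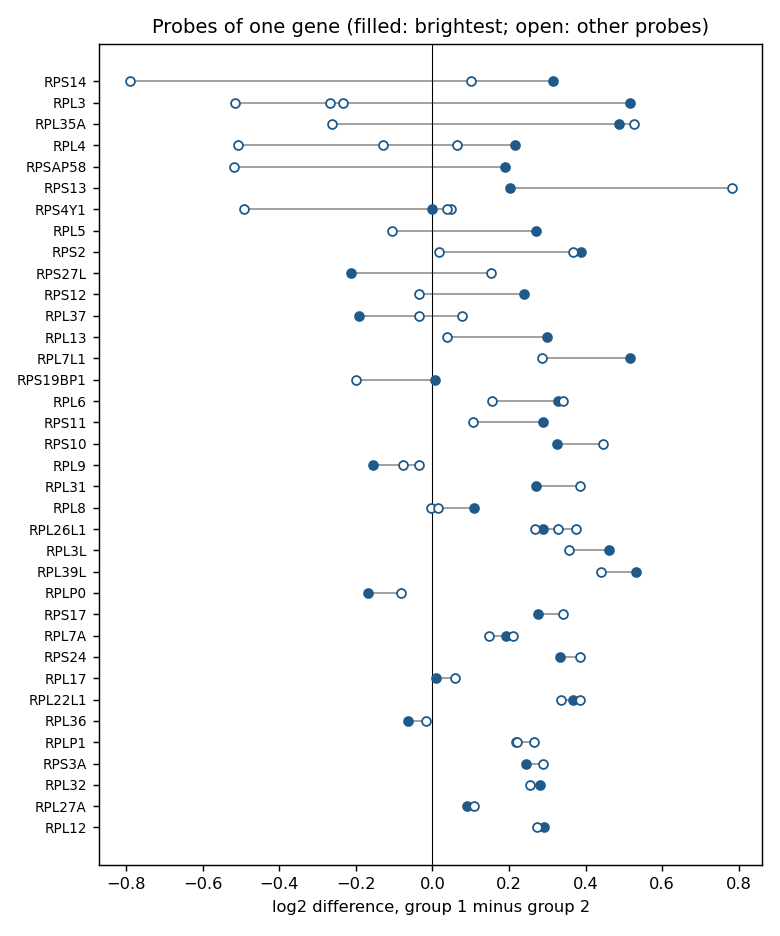
Log2 difference between group 1 and group 2 (x axis) for each probe of the 36 genes with several probes (y axis), ordered by the span, with the brightest probe filled and the others open. Probes of RPL12, RPL27A and RPL32 coincide nearly, while those of RPS14, RPL3 and RPL4 lie on both sides of 0.

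The rest of the translation machinery was read from lists of the pathway. Of 38 initiation factors 22 were measured. Of these 0 were called, against 9.67% of all genes. At an unadjusted p under 0.05 by limma there were 0, against 31.6% of all genes. Their median was 0.15, against 0.14 over all genes. The RNA helicase gene EIF4A2 came nearest, at 5.36 and 5.37 in group 1 against 5.82 and 5.90 in group 2. Its replicates lay together and the difference was -0.49 ± 0.19 (limma adjusted p = 0.152). Of 9 elongation factors and other genes with the same pyrimidine-rich message start, from a list of 20, 0 were called and 0 had an unadjusted p under 0.05, with a median of 0.19. EEF1B2, an exchange factor for elongation factor 1, had the smallest p, with -3.49 and -3.80 against -5.09 and -3.96 (0.88, limma adjusted p = 0.218), and group 2 replicate 1 alone was low. This dim gene differed by 0.44 with the normexp background alternative, 0.52 with quantile normalization and 0.26 with both. Without group 2 replicate 1 it differed by 0.32 (limma adjusted p = 0.346), and without group 2 replicate 2 by 1.44 (adjusted p = 0.0287), where 1 array stands for group 2.

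Genes that build ribosomes had higher medians than the ribosomal proteins, but 0 were called in the main fit, against 9.67% of all genes. Of 23 measured nucleolar assembly genes, from a list of 57, 0 were called, the median was 0.34, and 18 lay above 0. UTP6, of the complex that processes the small subunit RNA, read 2.98 and 2.77 against 1.92 and 1.66. Its groups lay far apart (1.08 ± 0.22) and its adjusted p of 0.05001 (limma) stood at the threshold. Its call under other settings is given with the alternatives. In this list 8 of 23 genes had an unadjusted p under 0.05 by limma, all 8 as higher in group 1, against 19.1% of all genes in that direction. Of 7 measured genes of RNA polymerase I and its factors, from a list of 21, 0 were called, and the median was 0.42. In this list 2 of 7 had an unadjusted p under 0.05 by limma, both as higher, against the same 19.1% of all genes. POLR2H, a subunit that polymerases I, II and III share, read 3.53 and 3.28 against 2.61 and 2.53 (0.84 ± 0.21, adjusted p = 0.0698).

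MYC, a transcription factor that drives ribosome genes, was the only call among 10 measured genes, of 39 listed, of mTORC1 signalling and its partners. It read -0.34 and 0.02 in group 1 and -2.06 and -1.78 in group 2. Both group 1 arrays were higher, by 1.76 ± 0.24 (limma adjusted p = 0.0301), with 9.67% of all genes called. The call was lost without the filter on dim probes and without either group 1 array (limma adjusted p = 0.282 without replicate 1 and 0.22 without replicate 2). The kinase RPS6KB1, which phosphorylates RPS6, differed by -0.46 and did not pass. Without group 2 replicate 1 it differed by -0.68, also on the side of group 2.

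Levels of genes that mark other cell types also differed between the groups, and what they contribute to these values was not tested. Erythroid markers (10 measured) summed to 246 and 208.1 times the reference signal on group 1 replicates 1 and 2. On group 2 replicates 1 and 2 they summed to 20.7 and 84.7. HBE1, RHAG and TFRC were not well above background on group 2 replicate 1, nor was TFRC on group 2 replicate 2. The median difference of the erythroid markers was 2.46, or 1.71 without group 2 replicate 1. Over the 7 well above background on all arrays it was 2.25. Of the 10 genes 9 lay above 0, while HBZ was at -0.81. HBBA and HBAD were the brightest genes in the erythroid sums. To count calls free of genes kept through one group alone, only genes well above background on all 4 arrays are counted, of which 4.75% passed as higher over all genes. Of erythroid markers 2 of 7 so measured were called higher. Markers of T and B lymphocytes (median 0.99 over 12, with 2 of 10 called higher) and of endothelial and stellate cells (1.34 over 14, with 7 of 13 called higher) also had higher medians in group 1. Those 7 were the collagen genes COL1A2, COL3A1, COL5A1, COL6A1 and COL6A3, with DCN and LUM. The called genes of the lymphocyte list were CD74 and PTPRC. In that list CD3D, CD3E, CD5, CD28, CD8A, CD79B, IKZF1 and BTK lay above 0 but were not called. The endothelial genes CDH5, ENG, FLT1 and KDR were above 0 (0.53, 1.05, 0.72 and 0.26) but not called, and TAGLN was at -0.12. Without group 2 replicate 1 these 4 differed by 0.93, 1.54, 0.35 and 0.07, and TAGLN by -0.20. Lymphocyte sums, in which CD74 was by far the brightest gene, were 193 to 215 in group 1 and 75.2 to 94.95 in group 2. There CCR7 and CD4 were not well above background. CXCR4 and PAX5 were not well above background on any array. Endothelial and stellate sums were 37.0 to 40.8 and 11.0 to 13.4, with FLT1 not well above background in group 2. Intestinal genes had a median difference of 2.87 over 14, and 0.57 over the 9 well above background on all arrays, of which 4 were called higher. They summed, without APOB, to 364 to 456 and 354 to 360.03, and CDH17, CDX2, FABP2 and RBP2 were not well above background in group 2. The brightest genes, APOA4 and ANPEP, differed by 0.07 (0.12 without group 2 replicate 1) and 0.36, and make up most of these sums. The sums thus say little of the dimmer genes. Among these RBP2, FABP2 and CDX2 were kept through group 1 alone. Their differences of 9.17, 8.29 and 6.90 rest on group 2 values near background, so their sizes are not resolved. Of all 14 genes 12 lay above 0 and 2 below. Hepatocyte sums were 1295 to 1788 and 1328 to 1664, with a median difference of 0.05 and 0 of 10 called. Without group 2 replicate 1 that median was 0.22. Of the 10 hepatocyte genes 7 lay above 0 and 3 below, with VTN lowest at -1.41. In bulk tissue fewer cells of a type and less RNA per cell cannot be told apart.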

How the data were processed

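Liver RNA was labelled with Cy3 and hybridised to 4 one-colour Agilent arrays. The scanner files give intensity per spot, and per the file headers Feature Extraction 11.5.1.1 made them and subtracted the background from the processed signal. A table deposited by the authors gives log2 values, which matched the scanner signal minus the 75th percentile, centred per probe (lowest r across probes 0.9996). That percentile was 978 to 1450 intensity units. Precision is limited by the number of arrays. The other columns deposited are flags of the software.

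The main values were log2 processed signal minus the 75th percentile of each array, taken over 43803 spots without controls. Outlier spots (8 to 25 per array) were set to missing and replicate spots averaged, which left 43603 probes. The 33869 probes well above background on both arrays of a group were kept, and 33868 could be tested. No spot was saturated. Accessions named 11935 probes, through a gene table of GRCg7b. The array was drawn on another build, so no coordinates are given. The brightest kept probe stood for a gene.

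The test was that of limma 3.58.1 (R 4.3.3) over all kept probes, with Benjamini-Hochberg adjustment. Prior degrees of freedom were 2.60 and residual ones 2. For 2 arrays per group an exact permutation test of one gene cannot go below p = 0.333. The fit was tested on simulated data. Arrays of a group correlated at 0.989 and 0.966 across probes, those of different groups at 0.931 to 0.946. The arrays shared 1 slide, on which position and group cannot be told apart. The members and lists were chosen with earlier results of these data known. Members were named by rank within a subunit (4 highest, 4 lowest), smallest p, chromosome Z, copied genes and probes that disagree in sign by over 0.5, and in each other list by a call or the smallest p. 1 member that the rule names is counted but not reported here by itself. Other members are named as comparisons, after their values were seen. The lists covered initiation, elongation, nucleolar assembly, RNA polymerase I, mTORC1, hepatocytes, red cells, lymphocytes, endothelial and stellate cells, and intestine. The files held no mean spot signal, so the median signal served for the normexp alternative. Same-numbered arrays did not deviate together (r = 0.03), so the numbers were not taken as pairs.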

Additional observations from a re-analysis of the deposited data

How the results depend on the processing

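Calls of ribosomal protein genes stayed at 0 in both directions under all processing alternatives and the replicate block, and with 1 array left out 0 to 1 were called higher and 0 lower. Their median ran from 0.02 to 0.24 over the processing alternatives and from 0.07 to 0.40 with 1 array left out. The 0 members at an unadjusted p under 0.05 (limma) became 1 of 51 with median scaling, quantile normalization or all arrays above background. They became 3 with either normexp setting and 2 with an intensity trend. Fits with 1 array left out are not counted here, since 1 array then stands for a group. Without group 2 replicate 2 more members, and more of all genes, reached that level than under the settings just named. In the main fit 31.6% of all genes reached that level, 929 as higher and 609 as lower in group 1. With normexp 934 and 695 did, with quantile normalization after it 897 and 841, and with a trend 1006 and 723. Median scaling gave 599 and 970, quantile normalization 783 and 715, and all arrays above background 857 and 635.

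The counts of all genes (280 higher, 191 lower) moved most. Lower calls were 302 with median scaling, 308 with normexp, 345 with normexp and quantile normalization and 111 with the replicate block (189 higher). Of called genes 59.4% were higher, but 40.2% with median scaling. Without the filter 102 and 54 were called, and with an intensity trend 438 and 321. With 1 array left out 0 to 720 were higher and 0 to 429 lower. Without either group 1 array 0 passed, with 336 and 224 at an unadjusted p under 0.05 without replicate 1 and 434 and 281 without replicate 2. Their median was -0.0794 with median scaling, 0.0581 with quantile normalization, 0.0472 after normexp and quantile normalization, 0.0896 as the median over each gene's probes and 0.0904 to 0.168 with 1 array left out.

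Members on Z had a median of -0.41 with median scaling, -0.0342 over all probes of a gene, and -0.343 to -0.0415 with 1 array left out. Over all genes 471 of 4871 were called in the main fit, 706 with normexp and 736 with quantile normalization after it. A trend gave 759, all arrays above background 501, leaving out Z and W 466, and no filter 156. Whether the counts of the lists below exceed these was not tested. Nucleolar assembly gained 3 calls with normexp, 4 with quantile normalization after it, 3 with a trend, 1 with all arrays above background, 1 without Z and W, and 0 to 4 with 1 array left out; UTP6 passed under each of these 5 settings and without either group 2 array. RNA polymerase I gained 1, 1, 2 and 0 to 1 (normexp, with quantile normalization, trend, 1 array left out). mTORC1 had 2, 2 and 2 under the first 3 of these, 0 without the filter and 0 to 2 with 1 array left out. Initiation factors had 0 to 1 and elongation factors 0 to 2 with 1 array left out.

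Signs turned for RPL17 with median scaling (-0.21), quantile normalization (-0.11) and normexp with it (-0.11), for RPS19BP1 (-0.21 and -0.0102 with the first 2), for RPSA, listed as RPSAP58 (-0.0251 with median scaling), and for RPS4Y1 in the authors' table (0.0026). With 1 array left out they turned for RPL17 (-0.16 to 0.18), RPLP0 (-0.402 to 0.0658), RPS19BP1 (-0.0872 to 0.0984), RPS4Y1 (-0.22 to 0.22), RPSAP58 (-0.0333 to 0.41), RPL9 (-0.318 to 0.0092), RPL4 (-0.00833 to 0.44) and RPL7 (-0.42 to 0.26). The cause was not tested. Fewer arrays leave fewer degrees of freedom.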
